A study of Mus musculus with 16 samples.

Results

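The 3 Nr4a genes, Nr4a1, Nr4a2 and Nr4a3, were followed in every library of the series by taking the row of each symbol from tables of 24060 genes, so that 3 of 24060 rows are described here. The 16 libraries came from the somatosensory cortex of C57BL/6J mice aged 3 months that carried Aldh1l1CreERT2 together with RiboTag. In all of them tamoxifen had been given at the age of 2 months to switch on an HA-tagged ribosomal protein in cells in which the Aldh1l1 promoter drives Cre, mainly astrocytes. Stressed mice swam in water for 20 min and then spent 90 min in the home cage, and naïve mice never left the home cage. From each group, 4 libraries held RNA pulled down with the tagged ribosomes (IP, ribosome-bound RNA enriched for astrocytes) and 4 held RNA of the cleared lysate (INPUT, all cell types), which gave 16 libraries in 4 groups of 4. The Methods name RNA from 4 male and 4 female mice, but the labels give neither the sex of a library nor which IP and INPUT libraries share a mouse, so libraries were compared as independent samples.

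Nr4a1 (Nur77), Nr4a2 (Nurr1) and Nr4a3 (Nor-1) are orphan nuclear receptors: they fold like steroid receptors but need no known ligand, so that their activity is set largely by how much of them is made. They are immediate early genes, transcribed within minutes to hours of a rise in cAMP or calcium through CREB and its coactivators bound to cAMP response elements (CRE) near their starts, and stress hormones acting through cAMP are among their classic inducers. As single molecules or pairs they bind NBRE and NurRE motifs, and Nr4a1 and Nr4a2 also pair with the retinoid X receptors. In the brain Nr4a1 and Nr4a3 are known as activity-dependent genes of neurons, and Nr4a2 is best known from midbrain dopamine neurons and from deep cortical neurons.

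The promoters of the 3 genes are shown first because all of them hold the same short element. The sequences are RefSeq's for GRCm38.p6, read 5′ to 3′ on the strand of the gene, and end at the last base before the RefSeq start for Nr4a1 and Nr4a2. They lie at chr15:101266596-101266845 on the plus strand for Nr4a1, inside an intron of its longest GENCODE model, and at chr2:57124004-57124253 on the minus strand for Nr4a2. For Nr4a3 only the first 98 of the 250 bases are printed, chr4:48045055-48045152 on the plus strand, since the others lie in a first exon of the GENCODE annotation. Capitals mark the CRE half-site TGACG or, on the other strand, CGTCA.
Nr4a1: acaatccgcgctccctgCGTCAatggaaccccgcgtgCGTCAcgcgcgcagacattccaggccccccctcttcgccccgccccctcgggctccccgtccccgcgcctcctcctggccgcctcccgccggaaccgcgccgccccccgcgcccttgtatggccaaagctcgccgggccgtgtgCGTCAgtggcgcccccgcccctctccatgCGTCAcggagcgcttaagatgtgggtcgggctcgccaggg
Nr4a2: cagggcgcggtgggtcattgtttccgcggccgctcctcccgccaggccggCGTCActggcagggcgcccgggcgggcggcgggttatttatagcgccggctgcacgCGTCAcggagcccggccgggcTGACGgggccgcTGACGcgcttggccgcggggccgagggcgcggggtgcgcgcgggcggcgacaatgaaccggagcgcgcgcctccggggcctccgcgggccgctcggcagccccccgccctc
Nr4a3: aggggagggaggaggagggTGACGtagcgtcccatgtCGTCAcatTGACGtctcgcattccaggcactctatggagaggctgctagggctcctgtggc

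Each of the 3 windows of 250 bases held 4 CRE half-sites, of which the last one of Nr4a3 falls in the part not printed. At least 1 half-site was present in 17.8% of the 32851 RefSeq windows of the same length, and 4 or more in 0.137% of them. The Nr4a windows were also richer in G and C, at 74.4%, 80% and 63.6% for Nr4a1, Nr4a2 and Nr4a3 against a median of 52.4%, and the part of base composition in the count was not tested. For Nr4a1 all 4 half-sites were on the opposite strand, at −233, −213, −69 and −40 (first base, with −1 the last base before the start). Those of Nr4a2 were at −200, −144, −123 and −111, and those of Nr4a3 at −231, −213, −205 and −147. The full palindrome TGACGTCA, which contains the half-site on both strands, was found in none of the 3 windows and in 1.55% of all windows. The Nr4a family's own element AAAGGTCA (NBRE) was also found in none of the 3 windows and in 1.34% of all. A MEF2 box was found once, in Nr4a2 from −167 to −158, and in 2.92% of all windows. An E-box, CANNTG, was found once in Nr4a3 from −20 to −15, but 66.2% of all windows held one. The CArG box, on which Srf acts, was found in none of the 3 and in 1.47% of all windows. These matches are letters in a sequence and no evidence that a factor was bound.

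**Figure D1:**
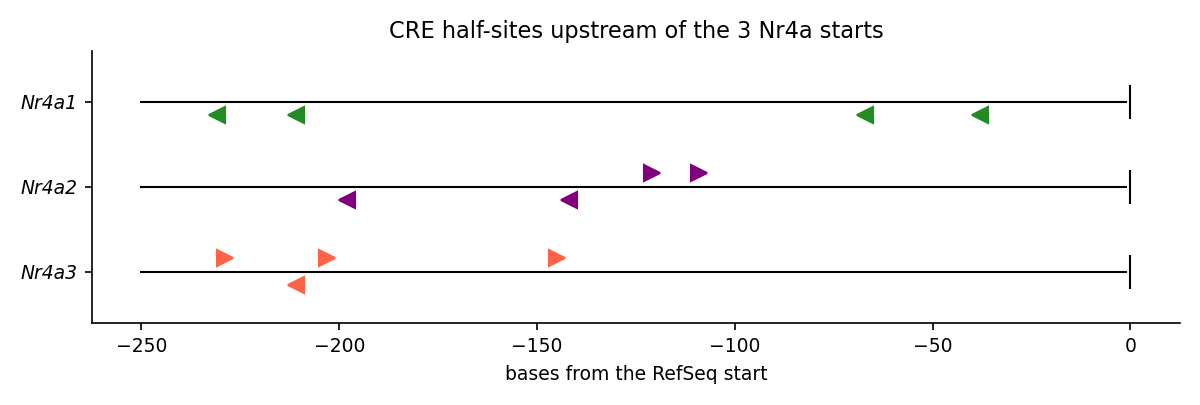
Positions of the 4 CRE half-sites in the 250 bases before the RefSeq start of each Nr4a gene (horizontal axis, bases from the start, marked by the vertical bar at 0). Arrowheads point right, above the line, for sites on the strand of the gene and left, below the line, for sites on the other strand, so that all 4 sites of Nr4a1 point left.

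The deposited values were log2 CPM, where CPM is a gene's fragments out of every 1000000 that a library had on genes, with 16392876 to 25814364 fragments on genes in a library. No 2 libraries were identical. The summed CPM of 6 astrocyte markers ran from 77453 to 89125 in IP libraries and from 4396 to 5293 in INPUT libraries, and that of 6 neuron markers from 334 to 551 in IP and from 9619 to 11272 in INPUT. Over all genes, 55 of 12501 (0.440%) passed the threshold between stress and naïve in IP and 6 of 13577 (0.0442%) in INPUT. The IP count was 122 without naïve IP replicate 11 and 101 without stress IP replicate 15, and the stress differences of the Nr4a genes in IP are therefore also given without them.

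Nr4a1 was the member with the most fragments in every group. In naïve IP it was at 9.99, 9.99, 8.11 and 12.9 CPM (replicates 2, 8, 11 and 13), and in stress IP at 36.1, 22.7, 28.0 and 26.1 CPM (replicates 4, 5, 6 and 15). The lowest stress IP library was above the highest naïve IP library. INPUT libraries held more of it, 37.3, 112, 67.5 and 103 CPM in naïve mice (replicates 3, 7, 14 and 16) and 87.9, 79.1, 71.6 and 86.0 CPM after stress (replicates 1, 9, 10 and 12). The naïve INPUT libraries thus differed among themselves by up to 2.99-fold, and the 4 stress INPUT values lay inside their range. These are levels in bulk RNA, in which fewer cells of a type and less RNA per cell cannot be told apart.

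Nr4a2, on chromosome 2 (57106830 to 57124003 on GRCm38, minus strand), came next. Naïve IP libraries held 1.66, 3.09, 2.39 and 2.94 CPM and stress IP libraries 7.05, 2.47, 4.88 and 5.26 CPM, in the order of replicates given for Nr4a1. Stress IP replicate 5 was below 2 of the naïve IP libraries, and the other 3 stress libraries were above all of them. In INPUT the levels were 20.2, 30.2, 33.8 and 30.4 CPM in naïve mice and 19.9, 38.0, 38.5 and 29.4 CPM after stress. The lowest of the 8 INPUT values belonged to a stressed library and the next lowest to a naïve one, with the groups overlapping widely.

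Nr4a3, on chromosome 4 (48045153 to 48086447, plus strand), had the fewest fragments, with 17 to 30 reads in a naïve IP library and 38 to 72 in a stress IP library. Its levels were 0.832, 1.34, 0.901 and 1.12 CPM in the naïve and 2.50, 1.87, 3.29 and 2.45 CPM in the stressed IP libraries. As for Nr4a1, all stress IP values lay above all naïve IP values. In INPUT it was at 7.40, 12.3, 7.83 and 10.8 CPM in naïve mice and at 12.0, 15.0, 13.8 and 14.9 CPM after stress. The groups overlapped by 1 library on each side, naïve replicate 7 lying above stress replicate 1.

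**Figure D2:**
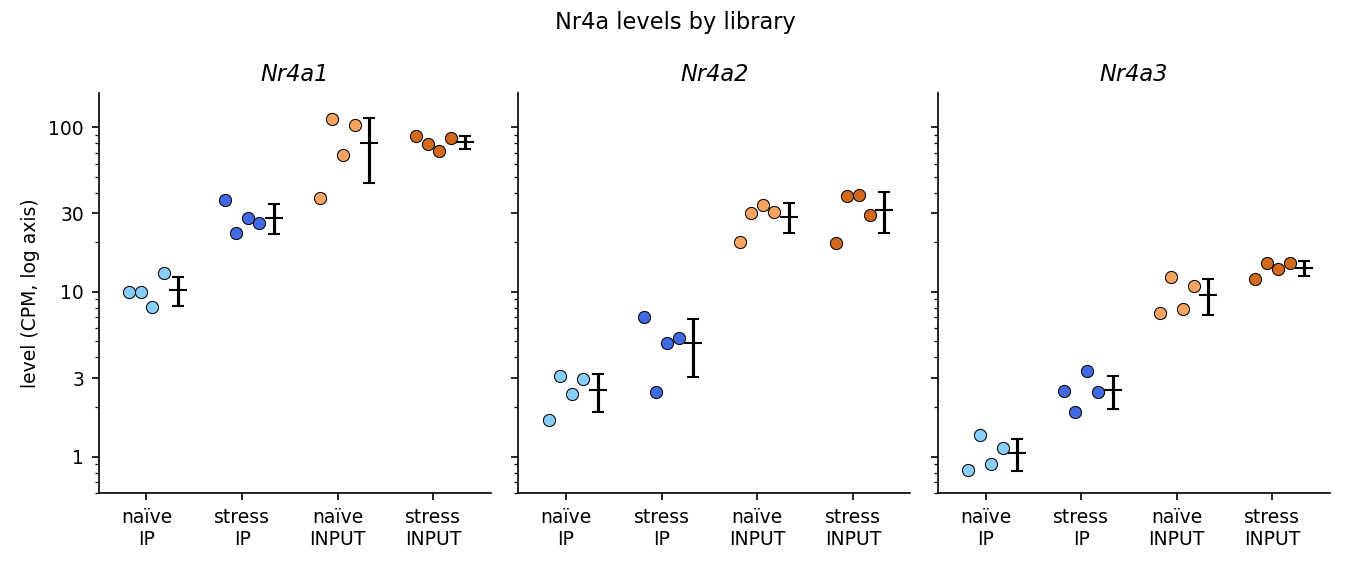
Levels of the 3 Nr4a genes in CPM (vertical log axis) in the 4 groups. Each point is 1 library and the bar beside the points is the mean ± SD (n = 4). Stress IP lies above naïve IP without overlap for Nr4a1 (28.2 ± 5.70 against 10.3 ± 2.00 CPM) and Nr4a3 (2.53 ± 0.580 against 1.05 ± 0.232 CPM).

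Compared per kilobase of exon, since longer transcripts give more fragments, the order Nr4a1, Nr4a2, Nr4a3 held in 4 of 4 libraries of each group. Lengths were the union of GENCODE exons, 3509 bases for Nr4a1 (chromosome 15, 101254269 to 101274795, plus strand), 4059 for Nr4a2 and 5987 for Nr4a3, and the order was the same with the longest transcript as length. Nr4a1 was at 2.92 ± 0.569 CPM per kilobase in naïve IP, 8.05 ± 1.63 in stress IP, 22.7 ± 9.72 in naïve INPUT and 23.1 ± 2.11 in stress INPUT (SD, n = 4 each). Nr4a2 was at 0.621 ± 0.159, 1.21 ± 0.465, 7.05 ± 1.45 and 7.75 ± 2.16 in the same groups. Nr4a3 was at 0.175 ± 0.0387, 0.422 ± 0.0969, 1.60 ± 0.395 and 2.33 ± 0.237. No ranges of neighbours in this order overlapped within a group. Nr4a1 therefore made up most of the family's per-kilobase level, 78.5% ± 4.34 in naïve IP, 83.4% ± 2.81 in stress IP, 70.7% ± 6.84 in naïve INPUT and 69.7% ± 6.77 in stress INPUT. The share of Nr4a3 was the smallest in every group, between 4.43% (stress IP) and 7.00% (stress INPUT) on average.

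Among 49 nuclear receptor genes compared per kilobase, Nr4a1 ranked at position 5 in naïve INPUT and 4 in stress INPUT, but at 19 in naïve IP and 13 in stress IP. Nr4a2 ranked at 18 and 16 in INPUT and at 30 and 27 in IP. The corresponding positions of Nr4a3 were 29 and 23 in INPUT and 36 and 33 in IP. In naïve IP the highest receptors were Nr1d1 (REV-ERBα, a clock repressor, 62.3 CPM per kilobase), Rorb (57.8) and Nr3c1, the glucocorticoid receptor (31.1).

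**Figure D3:**
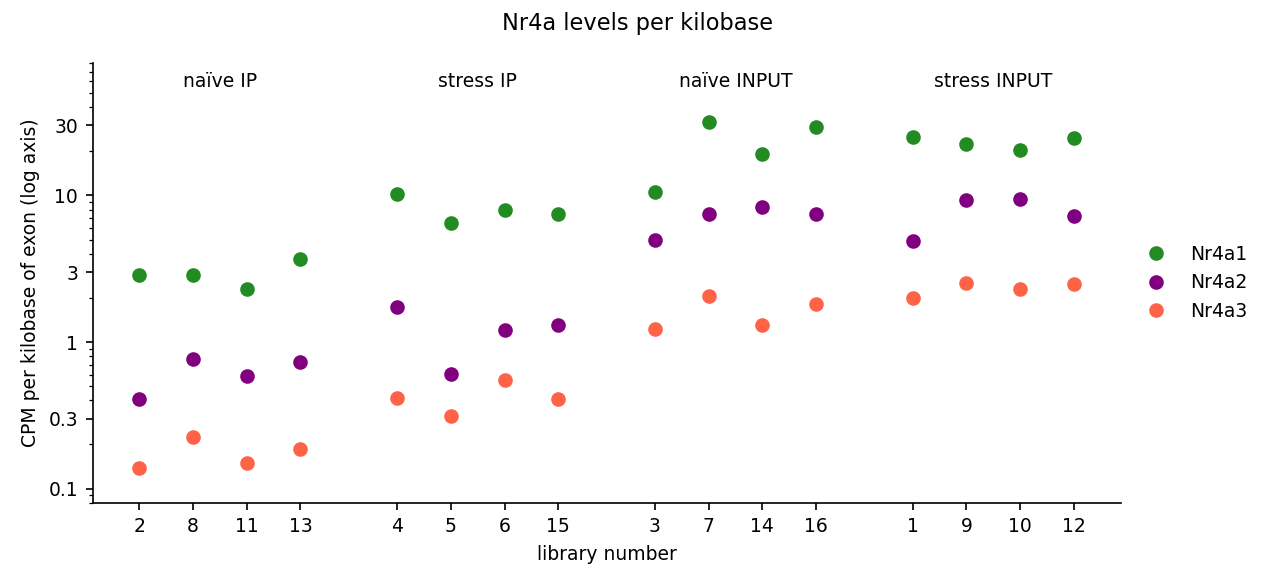
Levels of the 3 Nr4a genes per kilobase of exon (vertical log axis) in each of the 16 libraries (horizontal axis, library number), grouped by fraction and condition. In every library Nr4a1 is the highest and Nr4a3 the lowest, and all 3 are lower in IP than in INPUT.

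Whether swim stress changed the Nr4a genes in the IP fraction was tested with limma on log2(CPM + 0.1) over the 12501 genes with a mean above 1 CPM, at a Benjamini-Hochberg adjusted p under 0.05. The pseudocount of 0.1 makes fold changes of low genes smaller than the ratio of CPM. Nr4a1 rose after stress by 1.45 on the log2 scale (standard error 0.16, 95% confidence interval 1.11 to 1.79, adjusted p = 0.0033 with limma), a 2.73-fold difference. It ranked at position 9 of 12501 by log2 difference and at 4 by p. Nr4a3 was higher by 1.19 (standard error 0.23, interval 0.68 to 1.69) with no overlap between groups, but its adjusted p of 0.057 with limma missed the threshold. For Nr4a2 the difference was 0.88 (standard error 0.29, interval 0.24 to 1.52, adjusted p = 0.40 with limma) and the groups overlapped. In all, 1 of the 3 members passed the threshold as higher, where 0.216% of all genes did, and 2 of 3 did not overlap with stress higher, where 2.38% of all genes did. Their median log2 difference was 1.19, beside a median of −0.0036 over all genes tested. In exact permutation tests (two-sided, 70 ways to split 8 libraries), p was 0.029 for Nr4a1 and Nr4a3, the smallest that 4 against 4 libraries can give, and 0.086 for Nr4a2.

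Nr4a1 passed the threshold whichever library was left out, with log2 differences from 1.33 to 1.57. Without naïve IP replicate 11 its difference was 1.35 (adjusted p = 0.00093 with limma), and without stress IP replicate 15 it was 1.48 (adjusted p = 0.0020). Nr4a2 was at 0.87 (adjusted p = 0.45) and 0.82 (adjusted p = 0.30) without these libraries. Nr4a3 was at 1.13 (adjusted p = 0.078) and 1.19 (adjusted p = 0.065). It passed the threshold when libraries were weighted by their scatter (adjusted p = 0.030) and when all 16 libraries shared one estimate of the spread (adjusted p = 0.0042). Leaving out stress IP replicate 5, the lowest stress IP library for all 3 members, gave 1.55, 1.17 and 1.32 for Nr4a1, Nr4a2 and Nr4a3.

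In the whole-cortex INPUT RNA of the same conditions, 0 of the 3 members passed the threshold by limma, where 0.0442% of 13577 genes did. Nr4a1 differed by 0.14 on the log2 scale (standard error 0.25, interval −0.40 to 0.68, adjusted p = 0.99 with limma). Nr4a2 differed by 0.11 (standard error 0.20, interval −0.31 to 0.53, adjusted p = 0.99). Nr4a3 had the largest of the 3 values, 0.56 (standard error 0.15, interval 0.23 to 0.89, adjusted p = 0.46), and an exact permutation p of 0.057. At an unadjusted p under 0.05, 1 of the 3 members (Nr4a3) would count, as did 5.03% of all genes. The intervals of Nr4a1 and Nr4a2 do not exclude changes of up to 0.68 and 0.53, so that these data do not show the 2 genes to be unchanged.

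Naïve INPUT replicate 3 decided the sign of the Nr4a1 and Nr4a2 differences, which were −0.18 and −0.05 without it. That library was the lowest of the 4 naïve INPUT libraries for all 3 members. It was also the lowest for 13 of 16 other immediate early genes, with a summed level of 482 CPM against 673 in replicate 14, 1013 in replicate 16 and 1144 in replicate 7. Nr4a1 in these 4 libraries (37.3, 67.5, 103 and 112 CPM) followed the same order. Neuron markers summed to 9810 CPM in replicate 3 and to between 9753 and 10194 CPM in the other 3, so that its neuron marker level lay within theirs.

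The 2 stress effects were compared directly by an interaction term over all 16 libraries. The effect in IP exceeded that in INPUT by 1.31 for Nr4a1 (standard error 0.34, interval 0.59 to 2.03), the second-largest positive value of 13341 genes, yet its adjusted p was 0.45 with limma. For Nr4a2 the excess was 0.77 (standard error 0.39, interval −0.04 to 1.58, adjusted p = 1.0), and for Nr4a3 it was 0.63 (standard error 0.27, interval 0.05 to 1.20, adjusted p = 1.0). Thus 0 of 3 members passed in this test, where 0.0225% of genes did, and at an unadjusted p under 0.05 there were 2 of 3, beside 4.71% of genes. Nr4a1 passed the test when naïve INPUT replicate 3 was left out (1.63, adjusted p = 0.013 with limma) and in none of the other 15 fits that left out 1 library.

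**Figure D4:**
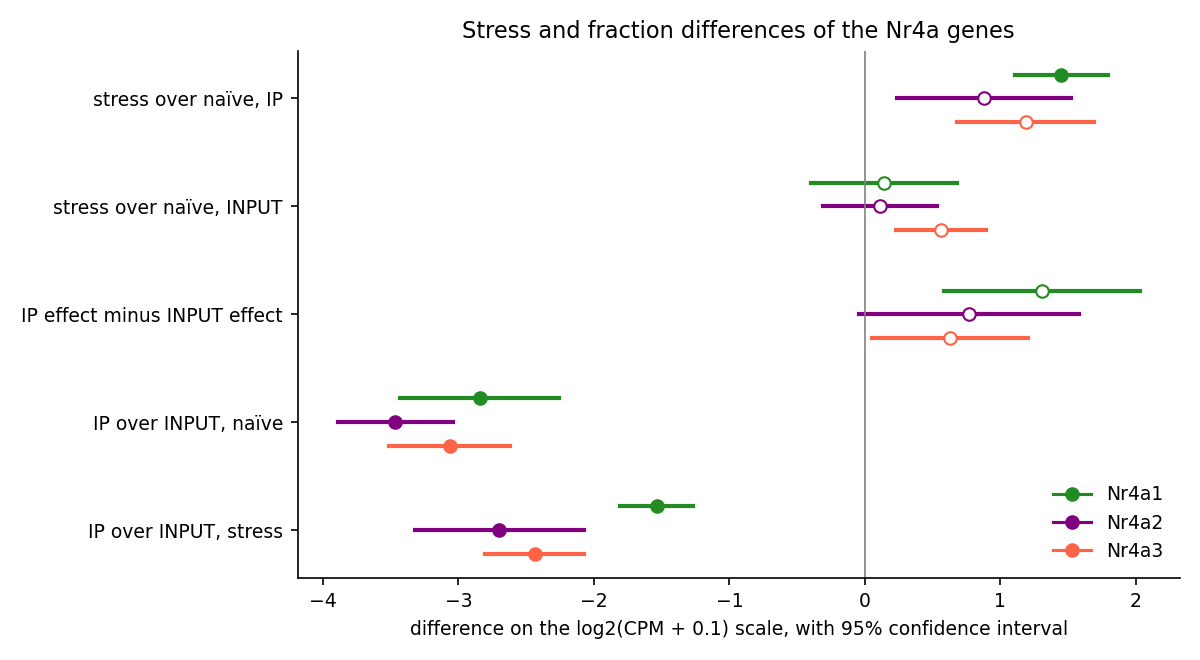
Differences of the 3 Nr4a genes on the log2(CPM + 0.1) scale (horizontal axis) in 5 comparisons (rows). Points are limma estimates, lines their 95% confidence intervals, and filled points have an adjusted p under 0.05, which among the stress comparisons holds for Nr4a1 in IP alone.

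All 3 paralogs were lower in IP than in INPUT. In naïve mice the log2 difference of IP from INPUT was −2.84 for Nr4a1 (standard error 0.27, adjusted p = 2.8e-07 with limma), −3.46 for Nr4a2 (0.20, adjusted p = 1.0e-09) and −3.06 for Nr4a3 (0.21, adjusted p = 6.4e-09). Lower in IP were 64.0% of the 13339 genes tested, and the median over all genes was −0.64, so a part of each value is shared with most genes. No IP value of a member reached any of its INPUT values, which held for 61.4% of all genes. The mean level in naïve IP was 12.9%, 8.81% and 10.9% of that in naïve INPUT for Nr4a1, Nr4a2 and Nr4a3. The 6 neuron markers were at 3.76% to 6.89%, the 4 oligodendrocyte markers at 8.51% to 12.3% and the 4 microglia markers at 5.18% to 14.8% of their INPUT level, while the 6 astrocyte markers were at 729% to 1753%. The members' depletion was thus within the range of these markers of other cell types, and all 3 were at a larger percentage than each of these 6 neuron markers. From which cells the IP reads of the 3 genes came was not tested. Of the 5 markers of layer 6b and claustrum neurons, cells known for Nr4a2, 4 were at larger percentages than the members (Gnb4 14.8%, Nxph4 19.9%, Ctgf 20.4% and Ntng2 29.2%), and Cplx3 was at 4.13%.

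After stress the differences of IP from INPUT were −1.54 for Nr4a1 (standard error 0.12), −2.70 for Nr4a2 (0.29) and −2.44 for Nr4a3 (0.17), all past the threshold with limma (adjusted p = 1.1e-07, 1.6e-06 and 2.2e-08). Here 62.5% of 13333 genes were lower in IP. Relative to INPUT the IP level was now 34.8% for Nr4a1, 15.6% for Nr4a2 and 18.1% for Nr4a3. The same 6 neuron markers were at 2.89% to 6.04%, and the 5 layer 6b and claustrum markers at 2.61% to 29.0%. Nr4a2 and Nr4a3 thus lay inside the range of that list, with Gnb4 at 16.3% and Nxph4 at 16.6%, and Nr4a1 lay above it. The oligodendrocyte markers were at 6.32% to 14.7% and the microglia markers at 5.42% to 19.0%. Of the vascular markers, Cldn5, Pecam1, Esam and Flt1 were at 6.78%, 8.21%, 11.6% and 24.6%. Rgs5, at 41.7%, was above Nr4a1. The summed neuron markers were not higher in stress IP (334 to 492 CPM) than in naïve IP (423 to 551 CPM), and those of oligodendrocytes (68.7 to 151 against 65.1 to 113 CPM) and microglia (15.5 to 25.9 against 16.4 to 20.0 CPM) overlapped between the groups. Of the 6 vascular markers, Pdgfrb was at 500% to 520% of its INPUT level, unlike the others, and made up most of their sum in IP (89.0 to 134 CPM in stress IP, 124 to 149 CPM in naïve IP), while the other 5 summed to 11.0 to 20.1 against 17.4 to 19.3 CPM. The sum of the 5 layer 6b and claustrum markers was 7.50 to 12.0 CPM in stress IP and 10.4 to 15.7 CPM in naïve IP. Scaling libraries by their median ratio to a mean library, which brings the median of all genes near 0, moved the naïve values to −2.21, −2.84 and −2.46 and the stress values to −0.91, −2.08 and −1.82, all still past the threshold.

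The log2 ratio of 2 paralogs was taken within each library after adding 0.1 CPM to both, and 3 pairs in 4 comparisons gave 12 tests. After stress, the log2 ratio of Nr4a1 to Nr4a2 was 2.57 ± 0.40 in IP and 1.41 ± 0.56 in INPUT (SD, n = 4 each), a difference of 1.16 (standard error 0.34) without overlap. That of Nr4a1 to Nr4a3 was 3.44 ± 0.31 in IP and 2.53 ± 0.23 in INPUT, a difference of 0.90 (standard error 0.20), also without overlap. Both reached the smallest exact permutation p of 0.029, which was 0.17 after Benjamini-Hochberg adjustment over the 12 tests. Without stress IP replicate 15 the 2 differences were 1.26 and 0.93. In the other 10 tests the groups overlapped. The ratio of Nr4a1 to Nr4a2 differed between stress and naïve IP by 0.57 (standard error 0.28, exact permutation p = 0.11) and that of Nr4a1 to Nr4a3 by 0.26 (standard error 0.22, exact permutation p = 0.26), so that a larger stress effect of Nr4a1 than of its paralogs was not shown.

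Of 16 further immediate early genes, most of them known as markers of recent neuronal activity, 13 were tested in IP. The threshold was passed by 0 of them with limma, where 0.440% of all genes passed. At an unadjusted p under 0.05 there were 4, 3 of them higher, beside 8.27% of all genes. The median log2 difference of the 13 in IP was 0.05, beside 1.19 for the 3 Nr4a genes. Fos, the classic activity marker, was at 3.61 ± 0.911 CPM in stress IP and 3.22 ± 0.527 CPM in naïve IP (SD, n = 4 each). Klf4 (0.70), Arc (0.66) and Sik1 (0.60), which codes for a kinase that restrains CREB coactivators, had the largest log2 differences of the list in IP, with adjusted p of 0.50, 0.54 and 0.10 by limma. In INPUT the list had a median of 0.32 and 1 of 16 passed the threshold, where 0.0442% of all genes did. It was Fosb, an AP-1 subunit, which rose from 12.4 ± 1.80 to 27.0 ± 2.40 CPM (log2 difference 1.13, standard error 0.11, adjusted p = 0.0018 with limma). At an unadjusted p under 0.05 there were 6 of 16 in INPUT, all of them higher, beside 5.03% of all genes. Egr2 had the largest difference of the list there (1.20, adjusted p = 0.40) and Egr4 was at 0.60 (adjusted p = 0.12), both zinc finger factors whose groups did not overlap. Fos in INPUT was at 35.8 ± 4.46 CPM after stress and 18.1 ± 9.06 CPM in naïve mice (1.14, adjusted p = 0.40). The INPUT groups of Fos and Fosb did not overlap either. The difference in stress effect between IP and INPUT passed the threshold for 0 of the 16, where 0.0225% of genes passed. At an unadjusted p under 0.05 there were 2, both lower in IP, beside 4.71% of genes. As for the Nr4a genes, most of the list was lower in IP than in INPUT, 14 of 15 tested in naïve mice with a median of −2.74 and 14 of 16 after stress with a median of −2.83. Of all genes, 64.0% and 62.5% were lower in IP in these 2 comparisons, with medians of −0.64 and −0.63.

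**Figure D5:**
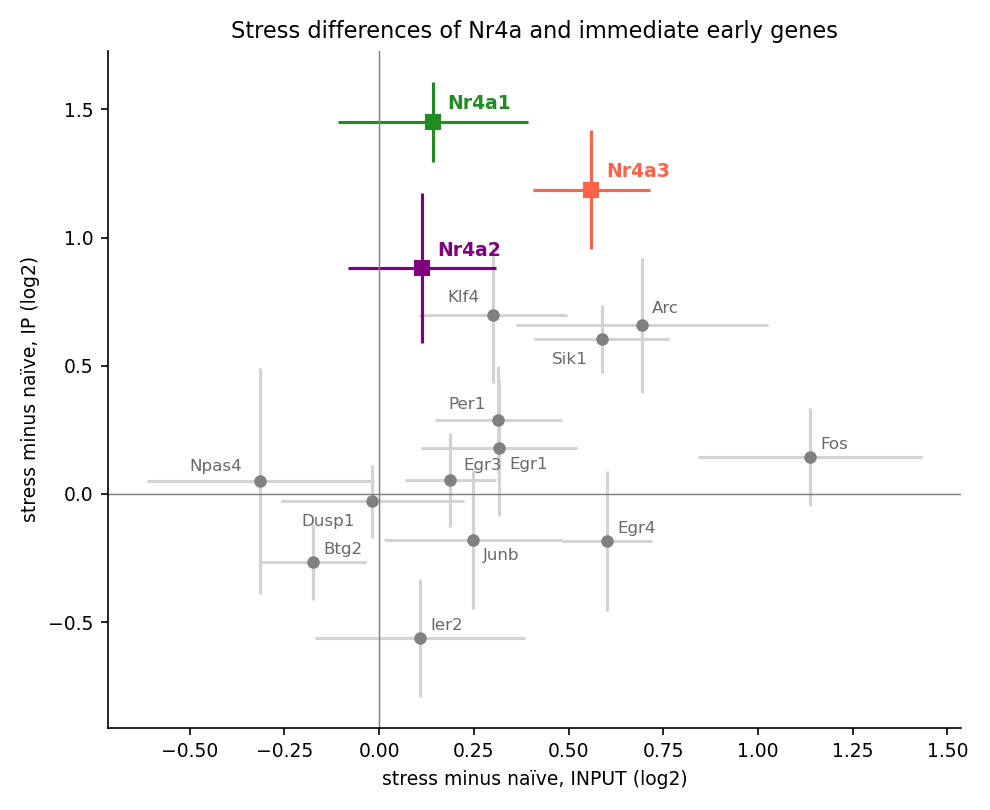
Stress minus naïve on the log2(CPM + 0.1) scale in INPUT (horizontal axis) and in IP (vertical axis) for the 3 Nr4a genes (coloured squares) and the 13 immediate early genes tested in both fractions (grey points), with limma standard errors as bars. The 3 Nr4a genes have the highest values in IP (1.45, 0.88 and 1.19), and Fos has the highest value in INPUT among the genes drawn (1.14).

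Of 32 other nuclear receptors tested in IP, 0 passed the threshold as higher, where 0.216% of all genes did. Among them Nr2c1 (log2 difference 0.45, adjusted p = 0.30 with limma) was higher without overlap between groups. At an unadjusted p under 0.05 there were 7, 2 of them higher, beside 8.27% of all genes. As lower in IP, 2 of the 32 passed the threshold, where 0.440% of all genes passed in either direction. They were the retinoic acid receptors Rara (19.5 ± 1.64 to 12.8 ± 1.07 CPM, log2 difference −0.61, adjusted p = 0.018 with limma) and Rarg (8.97 ± 0.807 to 5.93 ± 0.186 CPM, −0.59, adjusted p = 0.041). Rara missed the threshold without naïve replicate 2 or 13 or stress replicate 4 or 6 (adjusted p of up to 0.090 with limma), Rarg without any 1 of these, naïve replicate 8 or stress replicate 5 (up to 0.19), and both passed without naïve replicate 11 or stress replicate 15. The median of the 32 was −0.05, and the 3 Nr4a genes held positions 1, 2 and 3 of the 35 by log2 difference. In INPUT 0 of 33 other receptors passed by limma, where 0.0442% of all genes did. At an unadjusted p under 0.05 there were 6, 1 of them higher and 5 lower, beside 5.03% of all genes. Among all 36, Rara held position 1, Nr4a3 2, Nr4a1 6 and Nr4a2 8. Rara was thus higher after stress in INPUT, at 29.3 ± 1.95 against 19.2 ± 4.01 CPM without overlap (0.62, adjusted p = 0.12 with limma). Its IP effect minus its INPUT effect was −1.23 (standard error 0.17, adjusted p = 0.0045 with limma). In that test 1 of 33 other receptors passed, where 0.0225% of genes did. The dimer partner Rxra was at 45.6 ± 4.97 CPM in stress IP and 40.8 ± 7.26 CPM in naïve IP (0.17, adjusted p = 0.76), and Rxrb was at 21.4 ± 2.22 and 22.7 ± 2.05 CPM (−0.08, adjusted p = 0.87). Rxrg, with 1.04 ± 0.127 CPM in stress IP and 0.877 ± 0.204 CPM in naïve IP, was under the filter there. Rxrb was lower in IP than in INPUT in naïve mice (−1.07, standard error 0.08) and after stress (−1.18, standard error 0.09), as was Rxrg (−0.67 and −0.51), whereas Rxra did not pass in either. Of all genes, 64.0% and 62.5% were lower in IP, with medians of −0.64 and −0.63. The values of Rxrg were thus near those of most genes.

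Genes upstream and downstream of the family showed no stress call. The 12 regulators were the CREB and CRTC proteins that act on CRE sites, their acetyltransferases, MEF2 factors and Srf. Of them 0 passed in IP and 0 in INPUT by limma, where 0.440% and 0.0442% of all genes did. At an unadjusted p under 0.05 there were 1 and 2, beside 8.27% and 5.03% of all genes. The medians of the 12 were −0.11 and −0.04. Between fractions, 7 of the 12 passed as lower in IP in naïve and in stressed mice, where 64.0% and 62.5% of all genes did. The share in the list was thus near that of all genes. Mef2c, a neuronal MEF2 factor, was at 1655 ± 91.7 CPM in naïve INPUT but 111 ± 4.67 CPM in naïve IP (log2 difference −3.90). In naïve mice Mef2a, Mef2d and Srf were lower in IP by 2.05, 2.20 and 2.04. Crtc3 and Ep300 were the 2 of 12 that passed as higher in IP, in naïve and in stressed mice. Of 7 corepressor subunits, 0 passed under stress in IP or INPUT, with 0 at an unadjusted p under 0.05 in either. As so few of all genes passed, counts of 0 in lists of 12 and 7 say little about these genes.

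Among genes known as Nr4a targets in other tissues, 2 of 7 genes of dopamine synthesis and neuronal growth were above 1 CPM in IP, Vip (a neuropeptide) at 5.28 ± 1.34 CPM in naïve and 3.42 ± 0.699 CPM in stress IP, and Bdnf at 3.29 ± 0.565 and 2.22 ± 0.706 CPM. Neither passed by limma (log2 differences −0.60 and −0.59), where 0.440% of all genes did. Both were under an unadjusted p of 0.05, beside 8.27% of all genes, and both values lay in the direction opposite to the Nr4a genes. In INPUT the stress differences of Vip and Bdnf were 0.18 and 0.14, and neither passed there. Both genes were lower in naïve IP than in naïve INPUT, by log2 differences of −3.22 and −3.40. The 6 neuron markers had a median of −0.25 between stress and naïve IP, with 0 of 6 above 0. What lay behind the Vip and Bdnf values was not tested. Of 10 genes of muscle and liver sugar metabolism, 5 were tested in IP and 0 passed, where 0.440% of all genes did. At an unadjusted p under 0.05 there were also 0, beside 8.27% of all genes. The glycogen enzymes Pygm (phosphorylase) and Phkg1 (phosphorylase kinase) were astrocyte-enriched, Pygm at 485 ± 56.8 CPM in naïve IP against 35.4 ± 2.79 CPM in naïve INPUT, and they differed by −0.08 and 0.13 between stress and naïve IP (adjusted p = 0.85 and 0.69). These values were taken 90 min after the swim and say nothing of later times.

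The genes whose pattern over libraries was most like each member were ranked by the smaller of 2 Pearson correlations, over the 8 IP and over the 8 INPUT libraries, among 12305 other genes. These are descriptions over few libraries that share the stress contrast. Sik1 and Pdk4, the kinase that shuts off pyruvate dehydrogenase, were among the first 5 for both Nr4a3 (smaller r 0.88 and 0.86) and Nr4a1 (0.74 and 0.73). For Nr4a3 the list also held Nebl (0.89), the thrombin receptor F2r (0.82) and Arl4d (0.80), a small GTPase, whose level was 25.2 ± 6.14 CPM in stress IP against 3.71 ± 3.20 CPM in naïve IP. For Nr4a1 the others were 2900008C10Rik (0.86), Exoc8 (0.79) and Fbxw4 (0.75). The list of Nr4a2 shared no gene with those of its paralogs and held Prickle2 (0.90), Emc8 (0.81), Nap1l5 (0.79), Lmbrd1 (0.78) and Vma21 (0.77). Of these 13 genes Arl4d alone passed the threshold for stress in IP, where 0.440% of all genes did. None passed in INPUT, where 0.0442% of all genes did. Between the paralogs, Nr4a1 and Nr4a3 had r = 0.92 over IP and 0.63 over INPUT libraries (position 16 of 12305), Nr4a1 and Nr4a2 0.81 and 0.35, and Nr4a2 and Nr4a3 0.84 and 0.44. Their transcripts share no run of 30 bases, so that reads of 69 bases assigned to 1 paralog were not alike to another, and no other annotated gene overlaps any of the 3.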

How the data were processed

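RNA of 16 libraries was sequenced, with 4 libraries for each fraction (IP, INPUT) and condition (naïve, stress), grouped by the sample titles. Per the Methods and the submitters' processing notes, the authors aligned reads of 69 bases to mm10 with STAR, counted uniquely mapped fragments on RefSeq genes with HTSeq, and used edgeR and limma. They deposited 1 table of log2 CPM per library, scaled to its own total without gene length, and all values came out as whole reads (within 0.1 read) once the shared floor was removed. Versions of the authors' tools are not given in the sources used here. The Methods state that tissue of each animal was kept apart, so p-values of stress against naïve within a fraction measure the spread between 4 mice of a group. They also state that IP and INPUT RNA came from the same lysates. Comparisons that use both fractions therefore hold IP and INPUT libraries of the same mice, taken here as independent, and their p-values do not measure the spread between independent mice. The labels place the swim 1 month after tamoxifen and the Methods 2 weeks after it.

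Tests between groups used limma 3.58.1 (R 4.3.3, lmFit and eBayes with a variance trend) and log2(CPM + 0.1). Only genes whose mean passed 1 CPM over both groups entered, and the threshold was a Benjamini-Hochberg adjusted p under 0.05. The fit was tested on simulated reads. Exact permutation tests, ratios and plots used Python 3.11.15, NumPy 2.4.6, pandas 2.3.3, SciPy 1.17.1 and matplotlib 3.10.9. Gene models came from GENCODE M21 on GRCm38 (mm10). Libraries held 16392876 to 25814364 fragments on genes (median 21167241), and as PCR reads are not independent molecules, read numbers speak of counting error only.

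The members and gene lists were chosen with earlier results of these data known. Named are the 3 members, from each list at most the 4 genes past the threshold with the largest change in a comparison, Rxra, Rxrb and Rxrg, and the 5 genes most like each member. Further members of the lists (Fos, Egr2, Egr4, Klf4, Arc, Sik1, Nr2c1, Vip, Bdnf, Pygm and Phkg1 under stress, Rara in INPUT, Nr1d1, Rorb and Nr3c1 by level, Crtc3 and Ep300) were named after their values were seen. Alternatives were pseudocounts of 1 and 0.01 CPM, no filter and a mean above 5 CPM, 2 rescalings, limma-voom, array weights, no variance trend, all 16 libraries in one model, another gene length, and each library left out.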

Additional observations from a re-analysis of the deposited data

How the results depend on the processing

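Nr4a1 kept its direction and its call in IP under all 10 other settings (adjusted p at most 0.036 with limma) and all 8 fits without 1 library, and the IP to INPUT differences of the 3 genes kept theirs in naïve and in stressed mice. Nr4a3 in IP passed the threshold with array weights (1.18, adjusted p = 0.030) and with all 16 libraries in one model (1.19, adjusted p = 0.0042), and its adjusted p ranged from 0.0042 to 0.23 over all settings. A mean above 5 CPM left Nr4a2 and Nr4a3 untested in IP. Without 1 library the INPUT stress difference ran from −0.18 to 0.34 for Nr4a1 and from −0.045 to 0.32 for Nr4a2, negative without naïve INPUT replicate 3, and the IP minus INPUT difference of Nr4a1 ran from 1.11 to 1.63, past the threshold without that replicate. The Nr4a1 to Nr4a2 ratio under stress in INPUT ran from −0.21 to 0.20. A pseudocount of 1 CPM turned the naïve IP to INPUT difference of the Nr4a1 to Nr4a3 ratio from 0.22 to −0.39, a pseudocount near the IP level of Nr4a3.

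The count of genes past the threshold for stress in IP (55) was 143 with array weights, 19 without a variance trend, 124 with all 16 libraries, and 17 to 122 without 1 library. In INPUT (6) it was 50, 0 and 2 under the same settings by limma (727 genes at an unadjusted p under 0.05 where it was 0) and 1 to 32 without 1 library. For the difference of effects (3) it was 19 with array weights and 2 to 28 without 1 library. With the longest transcript as length, Nr4a1 was at 4.02, 11.1 and 31.8 CPM per kilobase in naïve IP, stress IP and stress INPUT. The cause of these moves was not tested. No paired analysis was possible because the labels number libraries 1 to 16, with no number shared between groups. The low read numbers of Nr4a2 and Nr4a3 in IP limit what these libraries can show for them.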
